A study of Mus musculus with 6 samples.

Results

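The interleukin-1 family genes described here are the ligands Il1a, Il1b, Il18 and Il33, the antagonist Il1rn, the receptors Il1r1, Il1r2, Il1rap and Il1rl1, and the protease gene Casp1. They were taken as every probe set annotated to 1 of these 10 genes, out of 18193 genes and 45101 probe sets on the array. In all, 16 probe sets for 9 of the genes were found, and 13 of them had a mean log2 signal above the 40th percentile. No probe set carried Il1rl1 (the receptor for IL-33) in the annotation used here, and it was not analysed here. Gene expression was measured in colon of C57BL/6 mice aged 6 to 8 weeks, harvested 24 h after ethanol was injected rectally. The 6 arrays fall into GPR41 KO, GPR43 KO and wild type (WT), with 2 arrays each, and all 3 groups received ethanol. GPR41 (Ffar3) and GPR43 (Ffar2) are cell surface receptors that short-chain fatty acids made by gut bacteria activate. The deleted part of each allele and the cells in which it is deleted are not given in the sources used here, nor whether each array is a separate animal. Each p-value therefore covers only the spread between these samples, which may be technical, and the number of arrays limits the precision.

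Interleukin-1 alpha and beta are agonists that bind the receptor Il1r1, which recruits the accessory protein Il1rap and signals through MyD88 and IRAK kinases to NF-kB. The antagonist Il1rn occupies Il1r1 without signalling, and Il1r2 is a decoy that captures the ligand without a signalling tail. IL-1 beta and IL-18 are made as precursors that caspase-1 cleaves in inflammasomes, whereas IL-1 alpha and IL-33 are released by damaged cells and act as alarm signals. In the gut, IL-1 beta is made mainly by myeloid cells and IL-18 mainly by the epithelium.

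The label GPR43 KO was checked first. The signals of Ffar2 in GPR43 KO were 1597.8 (replicate 1) and 189.0 (replicate 2), against 1193.7 and 1117.8 in WT. In GPR41 KO they were 1856.9 and 1932.6. A second probe set gave 1142 and 76.3 in GPR43 KO, against 840.2 and 756.9 in WT and 1229 and 1345 in GPR41 KO. Whether either lies in the deleted part is not given. Ffar2 was thus not low in that first GPR43 KO library, yet every GPR43 KO value below includes it unless stated. The GPR41 KO label was not checked, since no probe set of Ffar3 was analysed here. The array-wide median signal ranged from 80.9 to 96.8, and the 3'/5' ratio of Gapdh, a measure of RNA quality, from 0.778 to 0.858. The 10 epithelial markers of colon had summed signals of 248552 to 253516 in GPR41 KO and 254054 to 291203 in GPR43 KO, against 185913 to 214563 in WT, and 0 of them passed the test in either KO group. The signal, made by the authors with MAS5, is a linear intensity per probe set scaled to the same trimmed mean in each array. Fold changes are on the scale log2(signal + 18.4), where 18.4 is the 20th percentile of all values, and come from a limma fit over all 45037 probe sets that are not array controls. A probe set passed the test at a Benjamini-Hochberg adjusted p under 0.05 over all of them.

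The start regions of 4 ligand genes are shown so that the 3 ligands that were lower in the KO groups can be set beside Il18, which was not. Each line holds the 150 bases before the annotated start, read 5′ to 3′ on the gene's strand from the RefSeq table for GRCm38.p6, which held all 10 genes. Capitals mark matches to TATAAA (the TATA box), TGANTCA (AP-1) or TTGCNNAA (C/EBP). These and an NF-kB motif (GGG and TTTCC with any 2 bases between) were searched on both strands, and no match overlaps another in the lines shown.
Il1a, chr2:129309973-129310122, minus strand: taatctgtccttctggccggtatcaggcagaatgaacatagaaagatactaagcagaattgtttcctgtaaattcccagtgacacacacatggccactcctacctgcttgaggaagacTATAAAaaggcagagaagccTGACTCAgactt
Il1b, chr2:129371140-129371289, minus strand: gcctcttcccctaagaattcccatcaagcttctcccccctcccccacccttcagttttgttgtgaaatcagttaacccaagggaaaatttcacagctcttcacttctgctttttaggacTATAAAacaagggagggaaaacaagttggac
Il33 (promoter 2 of 2), chr19:29945640-29945789, plus strand: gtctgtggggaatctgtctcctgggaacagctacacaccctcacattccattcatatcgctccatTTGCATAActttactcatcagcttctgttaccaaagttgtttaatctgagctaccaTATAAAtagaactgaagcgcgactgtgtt
Il18, chr9:50554550-50554699, plus strand: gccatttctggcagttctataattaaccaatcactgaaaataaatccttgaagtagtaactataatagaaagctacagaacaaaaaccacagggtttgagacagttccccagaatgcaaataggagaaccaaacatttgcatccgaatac

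A TATA box on the gene's strand began 32 bases before the start of Il1a, 31 before that of Il1b and 29 before that of the second promoter of Il33. The 150 bases shown for Il18 held none, and neither did those before the first promoter of Il33, which is not shown. Farther out, that Il33 promoter had TATAAA 203 bases before the start, and Il18 had it on the opposite strand at 175 bases. The motif thus does not separate the lower ligands from Il18 at every promoter. Across 32851 promoters, 4.84% held TATAAA on the gene's strand in the same 150 bases. In the 250 bases before the start, searched on both strands, 12.4% of promoters held the TATA box, 6.75% the AP-1 motif, 9.56% the C/EBP motif and 1.41% the NF-kB motif. Among the members the NF-kB motif matched once, in the third promoter of Il1rn, 51 bases before the start. The windows of Il1r2, Il1rap and Casp1 held none of the 4 motifs. A match describes letters only, and a window without one says nothing about the factor. Il1a and Il1b lie on chromosome 2 with 54382 bases between them, and Il1r2, Il1r1 and Il1rl1 lie within 380727 bases on chromosome 1.

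Among the ligands, both IL-1 agonists and Il33 were far lower in both KO groups than in WT, and Il18 was not. Il1b gave signals of 189.3 and 166.5 in GPR41 KO and of 251.9 and 198.6 in GPR43 KO, against 9023 and 17119.6 in WT. Both KO groups lay wholly below WT, at 1.36% of its mean in GPR41 KO and 1.72% in GPR43 KO. This gave a log2 fold change of -5.99 ± 0.27 in GPR41 KO (SE, n = 2 arrays per group, limma, adjusted p = 5.66e-05). In GPR43 KO it was -5.68 ± 0.27 (limma, adjusted p = 0.00011). These calls held whichever array was left out. In whole colon, fewer cells of a type and less RNA per cell cannot be told apart.

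Il1a, the other agonist of Il1r1, gave 16.3 and 7.06 in GPR41 KO and 1.63 and 7.27 in GPR43 KO, against 454.6 and 799.6 in WT. All 4 KO values lay under the pseudocount, so the fold is set in part by it. The log2 fold change was -4.39 ± 0.46 in GPR41 KO (limma, adjusted p = 0.00341). It was -4.78 ± 0.46 in GPR43 KO (limma, adjusted p = 0.00316), where it ranged from -7.02 with a pseudocount of 1 to -3.12 with 4 times the pseudocount. Without GPR41 KO replicate 1 or replicate 2 the GPR41 KO call was lost (limma, adjusted p = 0.0519 and 0.0647).

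Il33, an alarm cytokine known from stromal and epithelial nuclei, gave 153.6 and 209.2 in GPR41 KO and 215.6 and 209.1 in GPR43 KO, against 777.1 and 1594 in WT. The KO values spanned a narrow range below both WT arrays. It fell by 2.52 ± 0.32 on the log2 scale in GPR41 KO (limma, adjusted p = 0.00776) and fell by 2.30 ± 0.32 in GPR43 KO (limma, adjusted p = 0.0165). The first call was lost without either GPR41 KO array (limma, adjusted p = 0.136 without replicate 1 and 0.0823 without replicate 2). The second was lost without GPR41 KO replicate 1 (0.064), GPR41 KO replicate 2 (0.0658), GPR43 KO replicate 1 (0.157), GPR43 KO replicate 2 (0.206) or WT replicate 2 (0.0851).

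Il18 had no such difference. Its signals were 3123 and 3160.3 in GPR41 KO and 4377 and 4792 in GPR43 KO, against 3379 and 3013 in WT. Both GPR41 KO arrays lay between the WT arrays, and both GPR43 KO arrays lay above all the others. The log2 fold change was -0.022 ± 0.12 in GPR41 KO (95% interval -0.30 to 0.26, limma, adjusted p = 0.98). It was 0.52 ± 0.12 in GPR43 KO (0.24 to 0.80, limma, adjusted p = 0.134). Set directly against each other, GPR43 KO exceeded GPR41 KO by 0.54 ± 0.12 (0.26 to 0.82), which did not pass over all probe sets (limma, adjusted p = 0.92). The intervals are not adjusted for the number of probe sets.

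**Figure D1:**
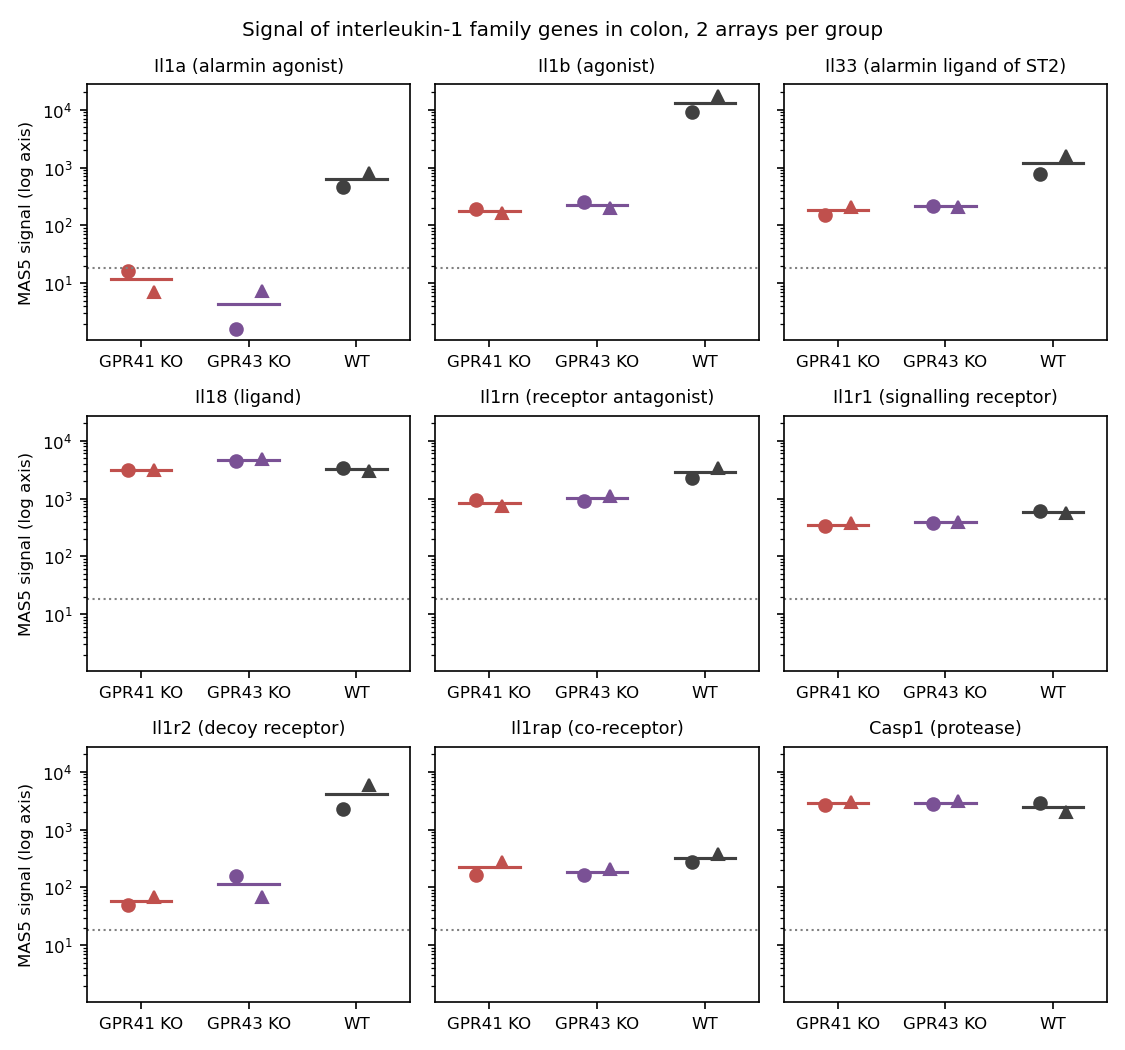
MAS5 signal (log axis) of the leading probe set of each of 9 interleukin-1 family genes in GPR41 KO, GPR43 KO and WT colon, where circles are replicate 1, triangles replicate 2, lines the group means and the dotted line the pseudocount of 18.4. Il1a, Il1b, Il33, Il1rn and Il1r2 lie lower in all 4 KO arrays than in both WT arrays, as Il1r1 also does by a smaller step, while Casp1 overlaps.

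The antagonist Il1rn, which competes with both agonists, also fell, by a smaller amount. Its leading probe set (highest on average over the arrays on the log2 scale) gave 926.1 and 747.4 in GPR41 KO and 910.6 and 1122 in GPR43 KO, against 2217 and 3427 in WT. The groups did not overlap, and Il1rn kept 29.6% of the WT mean in GPR41 KO and 36.0% in GPR43 KO. This gave a log2 fold change of -1.71 ± 0.22 in GPR41 KO (limma, adjusted p = 0.00792). In GPR43 KO it was -1.43 ± 0.22 (limma, adjusted p = 0.024). The other 2 probe sets of Il1rn also passed in GPR41 KO, at -1.22 and -1.68 (limma, adjusted p = 0.0146 and 0.0206). In GPR43 KO they did not pass, at -0.74 and -1.18 (limma, adjusted p = 0.132 and 0.105), although all KO arrays lay below WT there too. The GPR41 KO call of Il1rn was lost without GPR41 KO replicate 1 (0.0954) or replicate 2 (0.13). The GPR43 KO call was lost without GPR41 KO replicate 1 (0.0789) or 2 (0.0814), GPR43 KO replicate 1 (0.235) or 2 (0.182), or WT replicate 2 (0.113).

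Agonist and antagonist were also set side by side within each array. The difference of log2(signal + 18.4) between Il1b and Il1rn was -2.19 and -2.05 in GPR41 KO and -1.78 and -2.39 in GPR43 KO, against 2.02 and 2.31 in WT. The mean difference from WT was -4.28 in GPR41 KO and -4.25 in GPR43 KO, and the KO and WT arrays did not overlap. No model was fitted to this difference, and the smallest two-sided p that exact permutation of the arrays could give it is 0.333. The difference shows unequal change only, since levels of separate probe sets are not comparable.

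Among the receptors, the decoy was far lower in the KO groups and neither signalling chain passed the test. The decoy Il1r2 gave 49.9 and 68.3 in GPR41 KO and 158.7 and 67.6 in GPR43 KO, against 2225 and 5935 in WT. The library labelled GPR43 KO replicate 1 was the highest KO array but still lay below both WT arrays. Il1r2 fell by 5.57 ± 0.47 on the log2 scale in GPR41 KO (limma, adjusted p = 0.00147) and fell by 4.89 ± 0.47 in GPR43 KO (limma, adjusted p = 0.00309). The second call was lost without GPR43 KO replicate 2 (limma, adjusted p = 0.0532), which leaves the array in which Ffar2 was not low.

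Il1r1, the signalling receptor, gave 331.9 and 378.8 in GPR41 KO and 381.0 and 398.0 in GPR43 KO, against 616.1 and 567.2 in WT. All KO values lay below WT by a small step, with log2 fold changes of -0.71 ± 0.18 in GPR41 KO (limma, adjusted p = 0.143) and -0.58 ± 0.18 in GPR43 KO (limma, adjusted p = 0.248), and neither passed. Its second probe set stayed under the pseudocount in all 6 arrays. Il1r2 minus Il1r1 within an array was -2.36 and -2.20 in GPR41 KO and -1.17 and -2.28 in GPR43 KO, against 1.82 and 3.35 in WT. The library labelled GPR43 KO replicate 1 stood nearest to WT, and the WT arrays themselves lay far apart.

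Il1rap, the shared accessory chain, was read by 5 probe sets, and 0 of them passed in either KO group. The leading one gave 164.1 and 278.3 in GPR41 KO and 161.3 and 206.2 in GPR43 KO, against 273.8 and 371.7 in WT. GPR41 KO overlapped WT and GPR43 KO did not, with log2 fold changes of -0.54 ± 0.31 in GPR41 KO (limma, adjusted p = 0.607) and -0.75 ± 0.31 in GPR43 KO (limma, adjusted p = 0.405). The other 4 were weaker, with log2 fold changes from -1.03 to 0.17 in GPR41 KO and from -0.58 to 0.62 in GPR43 KO. The positive values came from probe sets below the 40th percentile, with most signals near or under the pseudocount. Those above it were lower in all KO arrays than in WT, at -1.03 and -0.32 in GPR41 KO and -0.58 and -0.57 in GPR43 KO.

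**Figure D2:**
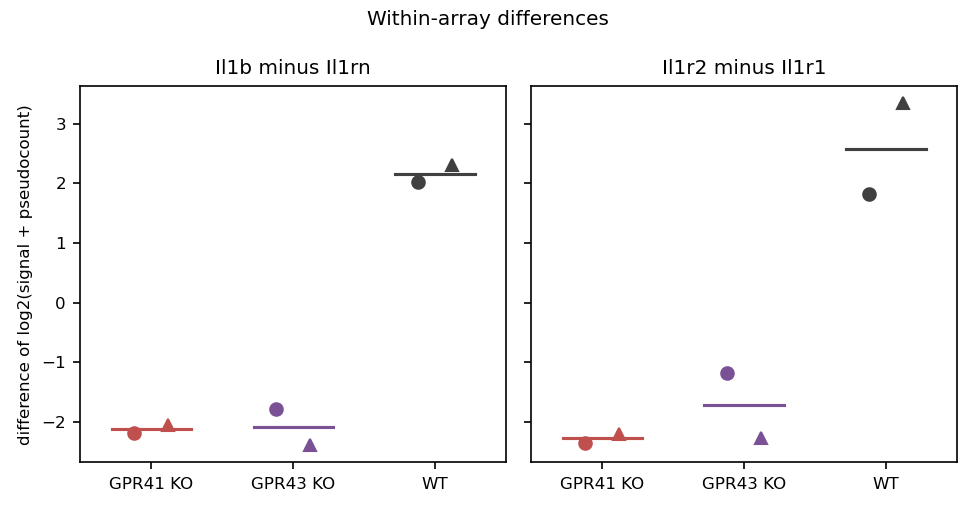
Within-array differences of log2(signal + 18.4) between Il1b and its antagonist Il1rn (left) and between the decoy Il1r2 and the signalling receptor Il1r1 (right), where circles are replicate 1, triangles replicate 2 and lines the means of 2 arrays. All 4 KO arrays lie below both WT arrays in each panel.

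Casp1, whose product cleaves the IL-1 beta and IL-18 precursors, gave 2687 and 2960 in GPR41 KO and 2733 and 3080.1 in GPR43 KO, against 2842 and 1977 in WT. Each KO group overlapped WT. The log2 fold changes were 0.25 ± 0.18 in GPR41 KO (95% interval -0.15 to 0.65, limma, adjusted p = 0.701) and 0.29 ± 0.18 in GPR43 KO (-0.11 to 0.69, limma, adjusted p = 0.613).

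Counted by leading probe set, 5 of the 9 genes passed as lower in GPR41 KO (Il1a, Il1b, Il33, Il1rn and Il1r2) and none as higher. Of all 45037 probe sets, 1.05% passed there, 0.748% as lower and 0.306% as higher. The GPR43 KO calls were those 5 genes again, all lower, beside 0.759% of all probe sets called, 0.551% lower and 0.209% higher. These shares count weak probe sets too, whereas all 9 leading probe sets lay above the 40th percentile. With 1 probe set per gene above the 40th percentile over genes, 545 of 10916 genes passed in GPR41 KO and 432 in GPR43 KO. In that fit 4 of 8 members passed in each KO group. The members were chosen with earlier results of these data known. Arrays did not overlap, with GPR41 KO lower, for 6 of the 9 genes, as for 22% of all probe sets, and with GPR41 KO higher for 0, as for 18.8%. For GPR43 KO the counts were 7 lower, beside 19.2% of all probe sets, and 1 higher (Il18), beside 21.3%. The median log2 fold change of the 9 was -1.71 in GPR41 KO and -1.43 in GPR43 KO, against -0.014 and 0.022 over the leading probe sets of all genes. Both comparisons use the same WT arrays. Only 2 of the 5 calls held whichever array was left out, those of Il1b and Il1r2 in GPR41 KO and of Il1a and Il1b in GPR43 KO. Each such fit leaves 1 group with a lone array that is assumed to vary like the others. Without the GPR43 KO array whose Ffar2 signal was not low (replicate 1), Il1b stood at -5.84, Il1r2 at -5.41 and Il1a at -4.60 in GPR43 KO. There Il33 stood at -2.32, Il1rn at -1.28, Il1rap at -0.59, Il1r1 at -0.55, Casp1 at 0.38 and Il18 at 0.58. With values floored at the 20th percentile, 0 members passed in either KO group. Without the intensity trend of the limma fit, Il1b in GPR41 KO was the 1 call that remained.

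**Figure D3:**
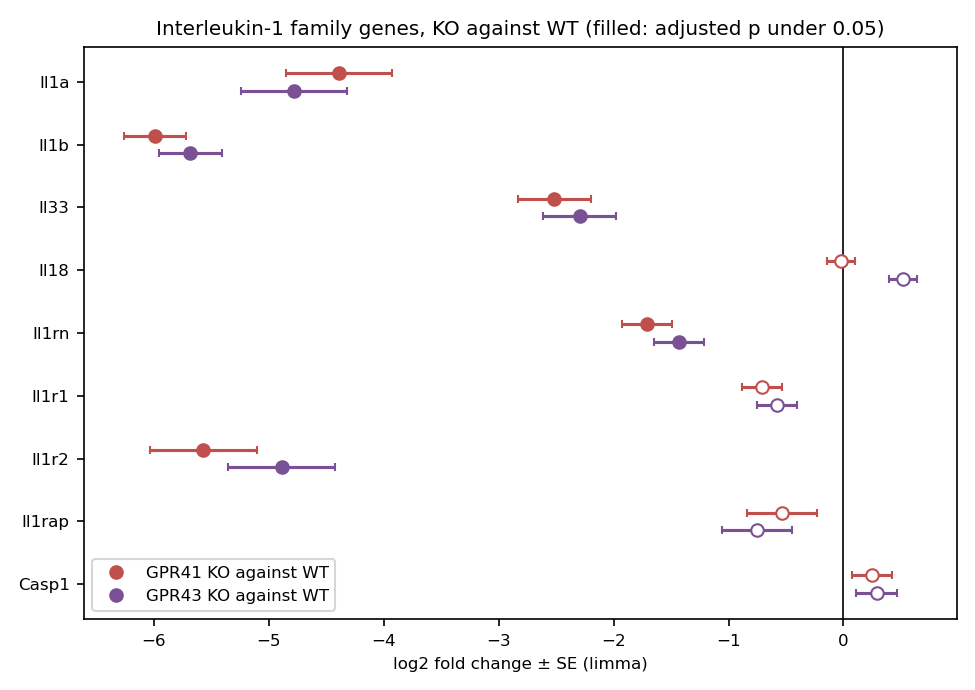
Log2 fold change against WT with its SE (limma) for the leading probe set of each gene, for GPR41 KO and GPR43 KO (n = 2 arrays per group), where filled points passed at an adjusted p under 0.05. With the pseudocount of 18.4, Il1b has the largest fall in both KO groups. With a pseudocount of 1, Il1a fell further in GPR43 KO (-7.02 against -5.79 for Il1b). Il18, Il1r1, Il1rap and Casp1 did not pass.

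GPR43 KO and GPR41 KO were then compared directly. None of the 9 genes passed, and neither did any of the 45037 probe sets (0%) in limma, while 2433 (5.4%) had an unadjusted p under 0.05. The arrays did not overlap, with GPR43 KO higher, for Il1b, Il1r1 and Il18, that is 3 of 9, beside 20.8% of all probe sets, and with GPR43 KO lower for 0 of 9, beside 14.6%. Among genes low in both KO groups, the 95% interval of the GPR43 KO minus GPR41 KO log2 difference ran from -0.31 to 0.92 for Il1b, from -0.38 to 1.74 for Il1r2 and from -0.50 to 0.94 for Il33. For Il1a it ran from -1.43 to 0.65 and for Il1rn from -0.22 to 0.77. The data thus leave room for differences of these sizes.

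The WT arrays differed from each other in the same genes. The signal in WT replicate 2 was 2.67 times that in WT replicate 1 for Il1r2, 2.05 times for Il33, 1.90 times for Il1b, 1.76 times for Il1a and 1.55 times for Il1rn. For Il1rap the ratio was 1.36, for Il1r1 0.921, for Il18 0.892 and for Casp1 0.696. The summed signal of 10 neutrophil markers had a ratio of 1.79 between these arrays. Other marker sums were higher in WT replicate 2 too, at 5550 against 2526 for squamous epithelium and 36000 against 23902 for monocytes and macrophages. Fibroblast (61456 against 41865), endothelial (3434 against 2520) and colon epithelium sums (214563 against 185913) were also higher there. Sums of mast cell (899 against 1133) and T cell and innate lymphoid cell markers (835 against 886) were lower.

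Those neutrophil markers were low in the KO groups, as were the 5 interleukin-1 genes that passed. Of the 12 listed, 10 had a probe set. Of these, 8 passed as lower in GPR41 KO and 7 in GPR43 KO, beside 0.748% and 0.551% of all probe sets. The summed signal of the 10 was 1106 and 880 in GPR41 KO and 3046 and 1105 in GPR43 KO, against 74516 and 133536 in WT. The mean was 0.954% of the WT mean in GPR41 KO and 2.00% in GPR43 KO, beside 1.36% and 1.72% for Il1b. Such a sum is weighted to the strongest probe sets. The median log2 fold change of the 10 was -4.44 in GPR41 KO and -4.29 in GPR43 KO, against -5.99 and -5.68 for Il1b. The library labelled GPR43 KO replicate 1 was the highest KO array for this sum, as it was for Il1r2 and Il1b. Of 10 monocyte and macrophage markers, 5 passed as lower in GPR41 KO and 3 in GPR43 KO, with median log2 fold changes of -1.37 and -1.14. Their summed signals ran from 9941 to 12540.1 in GPR41 KO and from 13269 to 14777 in GPR43 KO, against 23902 to 36000.0 in WT. The part of these cells in the falls of those 5 genes was not tested.

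Few markers of other cell types that could carry these genes passed. Of all probe sets, 0.748% passed as lower in GPR41 KO and 0.551% in GPR43 KO. With 2 arrays per group, a marker that did not pass may still differ. Of 8 fibroblast markers, 1 passed as lower in each KO group, Pdpn, at -1.74 in GPR41 KO and -1.45 in GPR43 KO. Their summed signal was 34702 to 43621 in GPR41 KO and 45422 to 46121 in GPR43 KO, against 41865 to 61456 in WT. None of 10 squamous epithelium markers (summed signal 1678 to 2474 in GPR41 KO and 1776 to 2526 in GPR43 KO, against 2526 to 5550 in WT) and none of 7 endothelial markers passed in either KO group. The endothelial sum was 1922 to 2131 in GPR41 KO and 2413 to 2451 in GPR43 KO, against 2520 to 3434 in WT. Of 9 mast cell markers and of 8 T cell and innate lymphoid cell markers, which include cells known to respond to IL-33, 0 passed in either KO group. The mast cell sum was 771 to 1053 in GPR41 KO and 1003 to 1237 in GPR43 KO, against 899 to 1133 in WT, and the lymphoid sum was 776 to 1116 in GPR41 KO and 851 to 1100 in GPR43 KO, against 835 to 886 in WT. Median log2 fold changes in GPR41 KO and GPR43 KO were -0.64 and -0.42 for endothelium and -0.18 and 0.083 for fibroblasts. They were -0.24 and -0.038 for squamous epithelium, -0.050 and -0.13 for mast cells and 0.16 and 0.19 for the lymphoid markers. No list had a marker whose leading probe set stayed under the pseudocount in every array.

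Other ligands and receptors of the wider family did not pass. Of 6 further ligands and binding proteins, 0 passed in either KO group, beside 1.05% of all probe sets in GPR41 KO and 0.759% in GPR43 KO. Il36g, an epithelial agonist listed in the annotation as Il1f9, gave 25.3 and 95.8 in GPR41 KO and 84.5 and 55.7 in GPR43 KO, against 227.8 and 584.3 in WT. Both KO groups lay below WT, with log2 fold changes of -2.45 ± 0.56 in GPR41 KO and -2.14 ± 0.56 in GPR43 KO (limma, adjusted p = 0.109 and 0.178). Il1f10, which encodes IL-38, had 149.9 and 257.0 in GPR41 KO and 174.7 and 271.2 in GPR43 KO, against 66.6 and 67.7 in WT. Both KO groups lay above WT, at 1.33 ± 0.36 in GPR41 KO and 1.47 ± 0.36 in GPR43 KO (limma, adjusted p = 0.18 and 0.145). Of 6 further receptors 0 passed. Sigirr, an inhibitory receptor of epithelium, had log2 fold changes of -0.088 in GPR41 KO and 0.076 in GPR43 KO. Il18rap is the accessory chain for IL-18. It gave 7.21 and 39.8 in GPR41 KO and 8.38 and 83.5 in GPR43 KO, against 143.8 and 196.3 in WT. All its KO arrays lay below WT, at -2.27 ± 0.68 in GPR41 KO and -1.84 ± 0.68 in GPR43 KO (limma, adjusted p = 0.231 and 0.349).

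Inflammasome genes did not pass either, 0 of 11 in each KO group, beside 1.05% of all probe sets in GPR41 KO and 0.759% in GPR43 KO. Their median log2 fold changes were -0.26 in GPR41 KO and -0.19 in GPR43 KO. Nlrp3, a sensor known from myeloid cells, gave 73.6 and 6.48 in GPR41 KO and 19.9 and 98.0 in GPR43 KO, against 468.3 and 677.3 in WT. All 4 KO arrays lay below WT but differed widely among themselves, and its log2 fold change of -3.60 ± 0.69 in GPR41 KO had an adjusted p of 0.0521 in limma and that of -3.12 ± 0.69 in GPR43 KO an adjusted p of 0.104. Mefv, which encodes the sensor pyrin, was at -1.26 in GPR41 KO and -1.42 in GPR43 KO. By contrast Nlrp6, a sensor of the gut epithelium, was at 0.41 and 0.41, the protease gene Casp8 at 0.12 and -0.19, and Gsdmd, which forms the membrane pore, at -0.21 and -0.30, in GPR41 KO and GPR43 KO.

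Of 14 receptor-proximal signalling genes, 0 passed in GPR41 KO (median -0.082), where 0.748% of all probe sets passed as lower. In GPR43 KO, where 0.551% did, 1 passed as lower (median 0.038). The one was Irak3, an inhibitory IRAK of monocytes, at -1.31 ± 0.26 in GPR41 KO (limma, adjusted p = 0.0622) and -1.45 ± 0.26 in GPR43 KO (limma, adjusted p = 0.0497). The GPR43 KO call sat at the threshold and was lost under 12 of 16 alternatives, which include each array left out. Myd88, the adaptor of the receptor, was at -0.64 and -0.84, the kinase gene Irak2 at -0.29 and -0.32, Peli1 at 0.43 and 0.54, and Ikbkg, a subunit of the IkB kinase, at 0.29 and 0.26, in GPR41 KO and GPR43 KO.

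Of 11 genes known to be induced by IL-1, 6 passed as lower in GPR41 KO and 5 in GPR43 KO, with 0 as higher in either. Of all probe sets, 0.748% and 0.551% passed as lower. The median of the 11 genes was -1.60 in GPR41 KO and -1.53 in GPR43 KO. Il6, an acute phase cytokine, gave 24.9 and 1.25 in GPR41 KO and 1.05 and 3.09 in GPR43 KO, against 606.6 and 1529 in WT, and fell by 5.08 ± 0.57 in GPR41 KO and fell by 5.59 ± 0.57 in GPR43 KO (limma, adjusted p = 0.00458 and 0.00367). Of these 4 KO values 3 lay under the pseudocount, and between a pseudocount of 1 and 4 times the pseudocount the change ran from -6.98 to -3.60 in GPR41 KO and from -8.38 to -3.79 in GPR43 KO. Csf3, the growth factor of neutrophils, fell by 3.59 and fell by 4.19, the prostaglandin synthase Ptgs2 fell by 3.63 and fell by 3.77, the matrix protease Mmp3 fell by 3.82 and fell by 3.13, and the chemokine Cxcl1 fell by 2.13 and fell by 1.77 in GPR41 KO and GPR43 KO. Icam1, an adhesion molecule, fell by 1.60 in GPR41 KO (limma, adjusted p = 0.0351) and stood at -1.53 in GPR43 KO (limma, adjusted p = 0.0514). Among these calls those of Ptgs2 alone held whichever array was left out, and that of Icam1 was lost without any 1 of the 6 arrays. In GPR41 KO, the calls of Csf3 and Cxcl1 were lost without either GPR41 KO array, with adjusted p from 0.0918 to 0.114 in limma. Those of Il6 and Mmp3 were lost without GPR41 KO replicate 2 (limma, adjusted p = 0.0714 and 0.0674). In GPR43 KO, the calls of Csf3, Cxcl1, Il6 and Mmp3 were lost without either GPR43 KO array (limma, adjusted p from 0.0502 to 0.228). There Cxcl1 and Mmp3 were also lost without WT replicate 2 (0.105 and 0.0913) and Cxcl1 without either GPR41 KO array (0.0802 and 0.0826). These genes also answer to other signals, and the list was chosen with results of these arrays known.

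**Figure D4:**
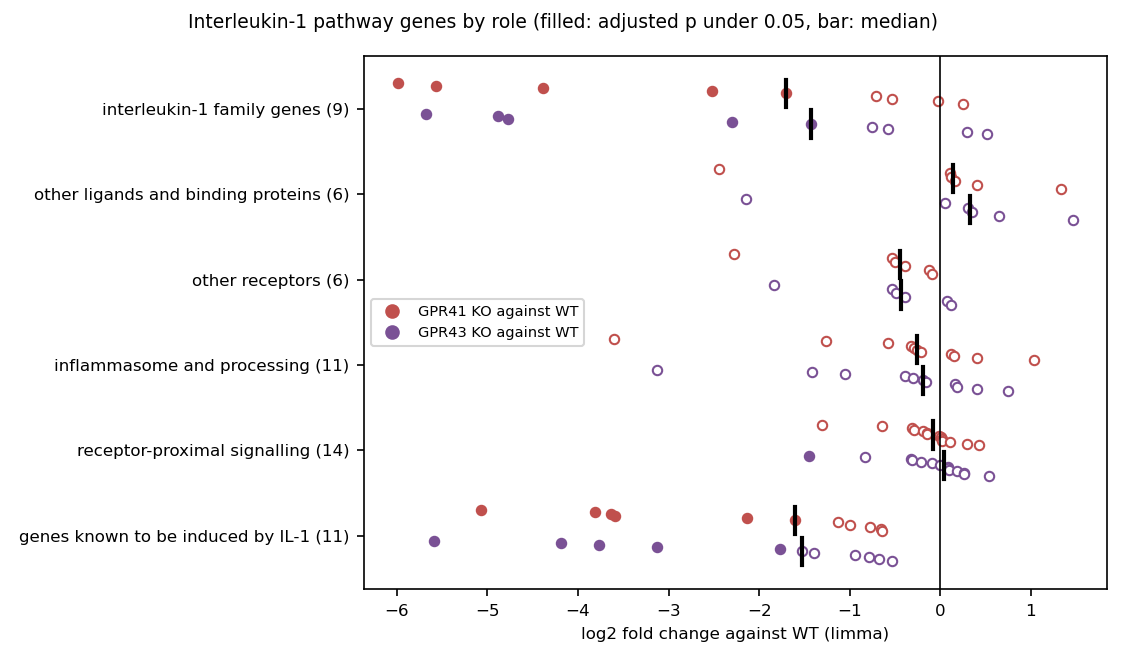
Log2 fold change against WT (limma) of single genes of the interleukin-1 pathway, grouped by role, for GPR41 KO and GPR43 KO, with the number of genes in parentheses, where filled points passed at an adjusted p under 0.05 and bars are medians. Passing genes lie among the family genes and the genes known to be induced by IL-1, and 1 lies among the signalling genes.

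The genes whose pattern over the 6 arrays was most like that of 3 of the ligands were found by the root mean square difference of log2(signal + 18.4), each gene centred on its own mean, among 10916 genes whose leading probe set lay above the 40th percentile over genes. For Il1b they were the neutrophil collagenase Mmp8 (0.374), the acute phase gene Saa3 (0.421), the decoy receptor Il1r2 (0.437), the siderophore-binding Lcn2 (0.447) and the chitinase-like Chil3 (0.478). For Il33 they were Cd53 (0.110), the leukocyte integrin Itgb2 (0.117), Emb (0.144), the oxidase subunit Ncf1 (0.156) and the Fc receptor chain Fcer1g (0.165), of which Cd53, Itgb2, Ncf1 and Fcer1g are known from leukocytes. For Il18 they were Zfp618 (0.0285), Gal3st1 (0.0423), Adcy6 (0.0476), Nrbp2 (0.0704) and Nprl3 (0.0740). Over 6 arrays in 3 groups, such likeness largely reflects steps of similar size between the groups. Which cells carry Il33 was not tested.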

How the data were processed

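Total RNA of colon was amplified from 2 µg, labelled with biotin and hybridised to 1 array per sample, per the labels. Each value is a linear intensity of a probe set, which the authors made with MAS5, per the submitters' processing notes. Its version was not given in the sources used here. The authors' scaling was checked: leaving out the lowest and highest 2% of probe sets, the mean was 500.003 in every array.

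Probe sets were named from the array's annotation table, in which, of the 45037 other than controls, 34945 had 1 gene symbol, 932 had several and 9160 had none. A pseudocount of 18.4 was added, and limma 3.58.1 in R 4.3.3 (lmFit, eBayes with intensity trend) was fitted with 1 mean per group to all 6 arrays and to all 45037 probe sets other than 64 controls. No filter on low signal was used, so each of the 16 member probe sets was tested. Tests were two-sided, with Benjamini-Hochberg adjustment and a threshold of 0.05. A gene's leading probe set has the highest mean log2 signal. Replicate numbers entered no fit but 1 alternative. Genes were named by rule: all members, up to 6 genes with the smallest p in each pathway list or any in a count of 5 or fewer, and the 5 most alike genes. The procedure was tested on simulated data. The members and lists were chosen with earlier results of these data known.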

Additional observations from a re-analysis of the deposited data

How the results depend on the processing

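Across 16 alternatives, no fold change of a called member turned its direction. With values floored at the 20th percentile, 0 probe sets and 0 members passed in GPR41 KO and in GPR43 KO against WT (5018 and 5275 at an unadjusted p under 0.05 in limma). That fit had 4.02 total degrees of freedom, against 8.84. Without the intensity trend, 8 probe sets and 1 member (Il1b) passed in GPR41 KO, and 5 probe sets and 0 members in GPR43 KO. With only the arrays of both groups compared, 152 probe sets and 3 members passed in GPR43 KO. In GPR43 KO against GPR41 KO, 2 probe sets passed after median centring and 1 with the filter at the 40th percentile, against 0. The GPR41 KO minus WT difference of Il1b minus Il1rn was -3.99 with 4 times the pseudocount.

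With 1 array left out, GPR41 KO against WT had 51 to 651 probe sets and 2 to 5 members called, GPR43 KO against WT 57 to 489 and 2 to 5, and GPR43 KO against GPR41 KO 0 to 3 probe sets and 0 members. The full counts were 475, 342 and 0. Genes that did not pass turned sign as follows. Casp1 in GPR41 KO against WT ran from -0.011 (without WT replicate 2) to 0.51 (without WT replicate 1) with 1 array left out. In GPR43 KO against GPR41 KO, Casp1 was at -0.054 with median centring and ran from -0.045 to 0.13 with 1 array left out (-0.029 without GPR41 KO replicate 1), Il1rap ran from -0.56 to 0.14, and Il1a was at 0 with the floor. For Il18, GPR41 KO minus WT was 0.072 with median centring and ran from -0.10 to 0.060 with 1 array left out.

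The replicate numbers were taken only to name the arrays, since the labels do not say what they stand for. The deviations of same-numbered arrays correlated at -0.0289, 0.00907 and -0.0634. These values cannot show whether same-numbered arrays shared a day or batch. With the replicate number as a block, 400, 298 and 0 probe sets passed, and 5, 5 and 0 members. With 1 probe set per gene, filtered at the 40th percentile over genes, Il1a was not tested and 4 of 8 members passed in each KO group. Of all 10916 genes in that fit, 545 passed in GPR41 KO and 432 in GPR43 KO.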
